A study of Mus musculus with 10 samples.

Results

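Sphingosine-1-phosphate (S1P) is a signalling lipid, and 9 genes of its production, transport, removal and sensing were followed in cultured lymphatic endothelial cells in which Vegfr2 had been knocked down. They are the receptor genes S1pr1, S1pr2 and S1pr3, the kinase genes Sphk1 and Sphk2, the exporter gene Spns2, the lyase gene Sgpl1 and the lipid phosphatase genes Plpp1 and Plpp3. They were taken by symbol from a table of 16251 genes, and all 9 had an entry and passed the filter on low counts. The cells were mouse primary lymphatic endothelial cells, the inner lining of lymph vessels. The 5 libraries labelled Vegfr2 siRNA came from cells that had received small interfering RNA (siRNA, a duplex that directs silencing of a matching transcript) at 50 nM, and another 5 carry the label control. RNA of both groups was taken at 48 h. Both groups carry the treatment tag siRNA knockdown, and the labels do not say whether control cells received another siRNA, nor whether the replicates were separate cultures, so p-values measure the spread between these libraries, which may be technical. No strain, age or sex of the source animals is given in the labels.

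S1P is made inside the cell when a sphingosine kinase phosphorylates sphingosine, and SPNS2 carries it out of endothelial cells. Outside, it acts on G protein-coupled receptors, of which S1P receptor 1 couples to Gi and tightens endothelial junctions, while S1P receptors 2 and 3 also couple to G12/13 and Gq. It is removed by the lyase SGPL1, which cleaves it irreversibly inside the cell, or by phosphatases that return it to sphingosine. Lymphatic endothelium is a known source of the S1P in lymph, along whose gradient lymphocytes leave lymph nodes, and VEGF receptor and S1P receptor signals are known to meet in endothelial barrier control.

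Estimated reads summed over genes came to between 17946483 and 18239260 per library. Kdr, which encodes VEGFR2 (Entrez gene 16542, GRCm38.p6 chromosome 5, 75932827 to 75979072), was at 1259 to 1431 CPM (reads of a gene relative to a TMM-scaled total) in control and 167 to 200.5 CPM in siRNA libraries, so its groups were far apart (14.0% ± 1.12 of control, SD, n = 5; two-sided exact permutation p = 0.00794, the smallest that the 252 assignments allow). The summed level of 6 lymphatic markers, Prox1, Flt4, Lyve1 and Reln among them, was 11556 to 12588 CPM in control and 7989 to 8679 CPM in siRNA libraries, and that of 5 pan-endothelial markers 3633 to 3727 and 3248 to 3348 CPM. Lyve1, Reln and Flt4 made up most of the lymphatic sum. Pdpn (9.48 to 13.1 CPM in control) and Ccl21a (2.13 to 3.42 CPM in control) were low. Of the 6 lymphatic markers 5 fell and Pdpn rose (edgeR adjusted p under 0.05), and of the 5 pan-endothelial markers 4 fell. Over all 12161 genes tested 71.3% passed that threshold, 36.1% higher and 35.2% lower in siRNA cells, so such calls were common. Markers of other cells that could make or sense S1P were low: 8 mural and fibroblast markers summed to 10.3 to 14.1 CPM in control and 11.5 to 13.3 CPM in siRNA libraries, and 4 epithelial markers to 1.22 to 2.46 and 7.68 to 8.73 CPM, nearly all of the latter from Krt18. The 5 blood cell markers with values, mostly Cd68, summed to 47.8 to 55.6 and 35.9 to 46.1 CPM. The part of these levels in the results below was not tested. In bulk RNA, fewer cells of a type and less RNA per cell cannot be told apart.

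Levels of different genes were compared per transcript length, in TPM (length-scaled transcript abundance, computed here from exon lengths). In control cells Plpp1 led with 1210 ± 11.6 TPM (SD, n = 5) and ranked 76th of the 11987 tested genes with a length. S1pr1 followed with 775 ± 9.52 TPM, rank 176. Spns2 (248 ± 9.93 TPM) and Plpp3 (231 ± 5.13 TPM) came next, with ranges that overlapped. Sgpl1 stood at 49.3 ± 1.74 TPM and Sphk2 at 24.4 ± 1.71 TPM, near the middle of these tested genes. The lowest were S1pr2 (3.70 ± 0.316 TPM), Sphk1 (2.14 ± 0.428 TPM) and S1pr3 (1.27 ± 0.121 TPM), which ranked between 10572 and 11422. Except for Spns2 and Plpp3, neighbours in this order did not overlap between libraries. The exon length used for S1pr2 (7971 bases) runs beyond its RefSeq model, and the annotation behind the counts is not given. The TPM of S1pr2, and its part in the receptor shares below, are uncertain to that extent. Lymphatic cells in this culture thus had high mRNA levels for 1 receptor, 1 exporter and 2 phosphatases, and a low level for the kinase gene Sphk1.

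**Figure D1:**
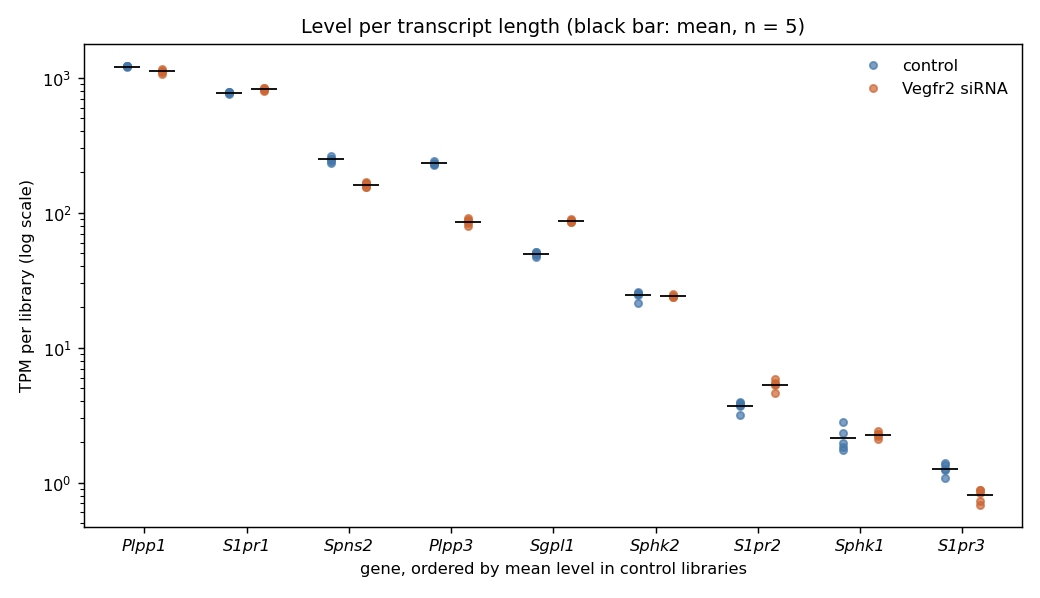
Level per length of the 9 genes, in TPM on a log axis, with 1 point per library (5 control, 5 Vegfr2 siRNA) and black bars for the means. Plpp1 and S1pr1 are highest in both groups, and Sgpl1 (87.2 TPM) reaches the level of Plpp3 (85.8 TPM) in siRNA libraries.

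After the siRNA the S1P genes moved in both directions. Plpp3 fell 2.69-fold and Spns2 1.53-fold, while Sgpl1 rose 1.78-fold and S1pr2 1.44-fold. S1pr3 fell from an already low level, S1pr1 rose by 1.06-fold and Plpp1 fell by 1.08-fold. Sphk1 and Sphk2 did not pass the test. In all, 3 of the 9 rose and 4 fell, in a comparison where 71.3% of 12161 genes tested passed (36.1% higher and 35.2% lower in siRNA cells), so the number of calls is close to the background. The same 7 genes had groups that did not overlap, against 57.0% of genes tested. The median size of the members' log2 fold changes was 0.52, beside 0.22 over all genes tested, and their median was −0.0095 beside −0.0019. The members were chosen with earlier results of these data known, so the larger size is a description only. Tested against a fold of more than 1.5 with glmTreat, which 8.56% of genes passed, Plpp3 (adjusted p = 4.10e-27) and Sgpl1 (adjusted p = 5.91e-10) passed.

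**Figure D2:**
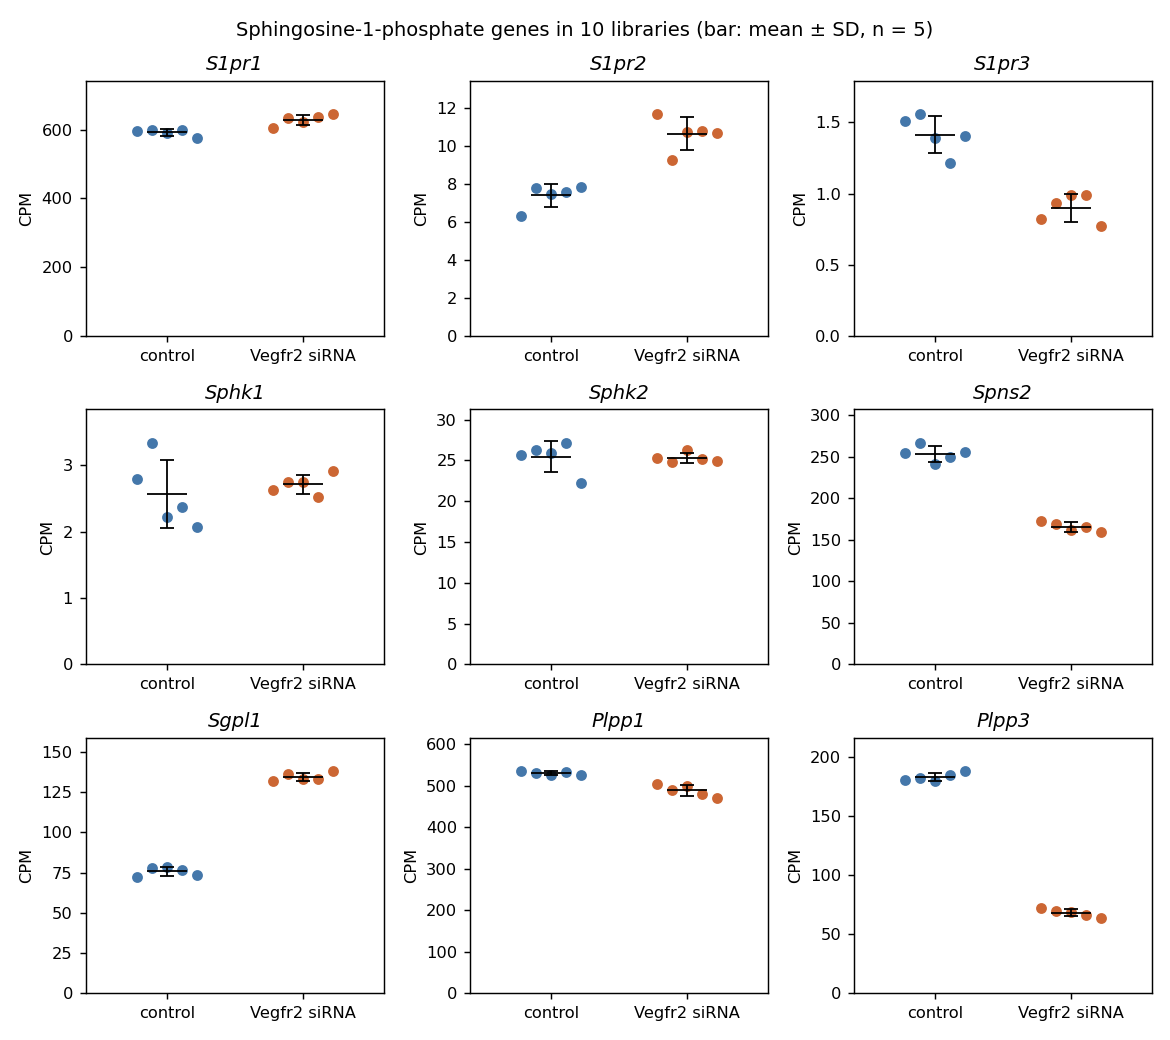
CPM of each of the 9 genes in every library, on axes that start at 0, with 5 points per group and the mean ± SD in black. The groups are apart for 7 genes, most widely for Plpp3, and lie over each other for Sphk1 and Sphk2.

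Neither of the kinase genes passed the test, and the interval of the difference was wider for Sphk1 than for Sphk2. Sphk1 (Entrez gene 20698, chromosome 11, 116530836 to 116536675), the inducible cytosolic kinase, was at 2.80, 3.34, 2.22, 2.37 and 2.07 CPM in the control libraries and at 2.63, 2.74, 2.74, 2.52 and 2.92 CPM in the siRNA libraries. All siRNA values lie inside the control range. Its log2 fold change was 0.08 (95% interval −0.20 to 0.36, edgeR adjusted p = 0.609), a range from 0.872 to 1.28 times control, on 230 and 247 counts per group. Sphk2 (Entrez gene 56632, chromosome 7, 45709463 to 45718002), which acts in the nucleus and on internal membranes, was at 25.6, 26.3, 26.0, 27.2 and 22.2 CPM in control and 25.2, 24.8, 26.3, 25.2 and 24.9 CPM in siRNA libraries. The groups overlap, and the log2 fold change of −0.0095 had a 95% interval of −0.11 to 0.09 (edgeR adjusted p = 0.873). Sphk1 made up 8.03% ± 1.27 of the summed TPM of both kinases in control and 8.55% ± 0.483 in siRNA cells (SD, n = 5). Reads of Sphk2 were divided between genes in all 10 libraries, and 13% of its exon bases lie opposite Dbp, which fell by 1.40 on the log2 scale, and 8.97% opposite Rpl18 (log2 fold change 0.02). No strand setting is given in the sources used here, so reads of such overlaps cannot be assigned and Sphk2 is uncertain to that extent.

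Spns2, the transporter that releases S1P from endothelium (Entrez gene 216892, chromosome 11, 72451638 to 72489976), fell. Control libraries had 254, 267, 242, 249.9 and 255 CPM, and siRNA libraries 172, 169.5, 161, 166 and 159 CPM. The lowest control value is well above the highest siRNA value. The log2 fold change was −0.61 (SE 0.0273, edgeR adjusted p = 2.19e-23), which left 65.3% of the control mean. Of its exon bases 3.21% lie opposite Mybbp1a, a gene that rose by 0.84 on the log2 scale. Mfsd2b, the S1P exporter of red cells and platelets, had 1.337 ± 0.265 CPM in control and 1.098 ± 0.270 CPM in siRNA libraries (SD, n = 5; edgeR adjusted p = 0.214). Of the other transporters that can move S1P across the membrane, Abca1 fell by 0.27 and Abcg2 by 0.27 on the log2 scale, and Abcc1 was at 69.0 ± 1.32 and 71.9 ± 2.43 CPM (log2 fold change 0.06, 95% interval −0.0048 to 0.12). Apom, the plasma carrier of S1P, did not reach the filter, with 5 counts in all control and 4 in all siRNA libraries.

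Sgpl1, the lyase of the endoplasmic reticulum that ends the pathway (Entrez gene 20397, chromosome 10, 61098642 to 61147684), had the largest rise of the 9. It stood at 72.0, 78.1, 78.6, 76.9 and 73.5 CPM in control and at 132, 136, 133.5, 133.2 and 138 CPM in siRNA libraries. Every siRNA library was above every control library by a wide margin. The log2 fold change was 0.83 (SE 0.0295, edgeR adjusted p = 7.77e-27), rank 884 of 12161 by size. Aldh3a2, whose enzyme oxidises the fatty aldehyde that the lyase releases, was at 79.7 ± 2.72 and 77.6 ± 1.80 CPM (SD, n = 5), with a log2 fold change of −0.04 (95% interval −0.10 to 0.03, edgeR adjusted p = 0.281).

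Plpp3 showed the largest change. It encodes lipid phosphate phosphatase 3, a membrane ectoenzyme that dephosphorylates S1P and lysophosphatidic acid (Entrez gene 67916, chromosome 4, 105157347 to 105232767). The 5 control libraries had 181, 182, 179.9, 185 and 188 CPM and the siRNA libraries 72.1, 69.8, 68.9, 66.2 and 63.6 CPM. The groups were tight and far apart, and 37.2% of the control mean remained (log2 fold change −1.43, SE 0.0299, edgeR adjusted p = 8.95e-35), rank 229 of 12161 by size. Plpp1, which encodes a related phosphatase (Entrez gene 19012, chromosome 13, 112800777 to 112867894), was at 535, 532, 526, 533 and 526.5 CPM in control and 505, 489, 499.6, 480.1 and 472 CPM in siRNA libraries. It fell slightly and without overlap, with a log2 fold change of −0.12 (SE 0.0233, edgeR adjusted p = 2.27e-05). Of its exon bases 25.8% lie opposite Mtrex, an RNA helicase gene that rose by 0.30 on the log2 scale, so its level is uncertain by the reads of that stretch. The estimated counts of Plpp1 were whole numbers in every library, unlike those of Sphk2, so no division of its reads between genes shows. Plpp2, the third gene of this family and from the list of other pathway genes, rose from 28.8 ± 2.05 to 37.8 ± 0.967 CPM (SD, n = 5; log2 fold change 0.39, edgeR adjusted p = 2.37e-10). Plpp3 made up 15.3% ± 0.298 of the summed TPM of Plpp1, Plpp2 and Plpp3 in control and 6.65% ± 0.165 in siRNA cells, and Plpp1 80.1% ± 0.307 and 86.3% ± 0.150. Their sum was 1511 ± 11.5 TPM in control and 1290 ± 35.8 TPM in siRNA cells. Of the phosphatases inside the cell that are selective for S1P, Sgpp1 fell from 17.7 ± 0.969 to 11.4 ± 0.562 CPM (log2 fold change −0.64, edgeR adjusted p = 2.35e-12), and Sgpp2 rose from 0.412 ± 0.207 to 1.20 ± 0.489 CPM (log2 fold change 1.52, edgeR adjusted p = 1.46e-04), with overlapping groups and only 37.0 and 109 counts.

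The receptors were dominated by S1pr1. It made up 99.4% ± 0.0426 of the summed TPM of S1pr1, S1pr2 and S1pr3 in control and 99.3% ± 0.0623 in siRNA cells (SD, n = 5), and their sum was 780 ± 9.44 and 826 ± 20.4 TPM. S1pr1, the Gi-coupled receptor of endothelial junctions (Entrez gene 13609, chromosome 3, 115710433 to 115715055), was at 595, 597.86, 591, 597.87 and 576 CPM in control and at 605, 633, 621, 636 and 644 CPM in siRNA libraries. The groups do not overlap, but the lowest siRNA library lies close above the highest control library. The rise was small, with a log2 fold change of 0.09 (95% interval 0.04 to 0.13, edgeR adjusted p = 0.00108).

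The minor receptors went opposite ways. S1pr2 (Entrez gene 14739, chromosome 9, 20965952 to 20976793), a receptor that signals through G12/13, was at 6.32, 7.78, 7.45, 7.56 and 7.85 CPM in control and 11.7, 9.27, 10.8, 10.8 and 10.7 CPM in siRNA libraries, and it rose by 0.52 on the log2 scale (SE 0.0791, edgeR adjusted p = 1.50e-07). S1pr3 (Entrez gene 13610, chromosome 13, 51408618 to 51422797), which couples to Gq, Gi and G12/13, was at 1.51, 1.56, 1.39, 1.21 and 1.40 CPM in control and 0.821, 0.932, 0.988, 0.987 and 0.770 CPM in siRNA libraries. Neither gene's groups overlap. S1pr3 fell by 0.65 on the log2 scale (SE 0.195, edgeR adjusted p = 0.00315), on 127 counts in control and 82 in siRNA cells. S1pr4, a receptor mainly of blood cells, had 1.24 ± 0.214 and 1.12 ± 0.391 CPM (SD, n = 5; edgeR adjusted p = 0.565), and S1pr5 did not reach the filter, with 1 and 2 counts per group.

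**Figure D3:**
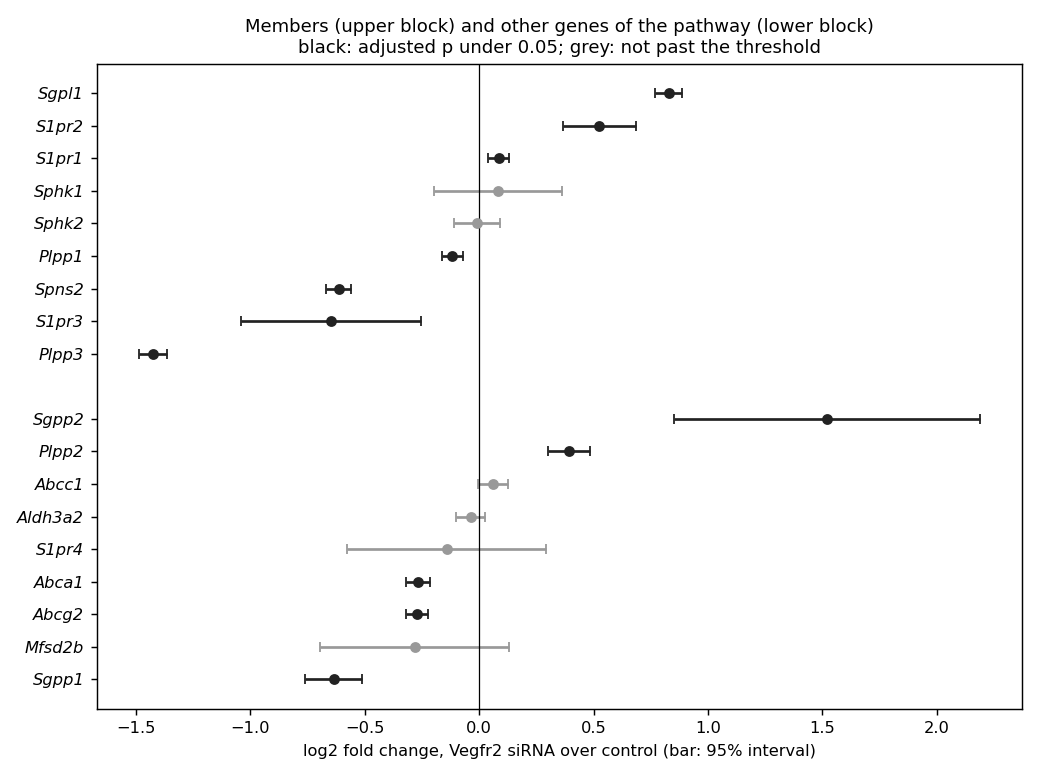
Log2 fold change of Vegfr2 siRNA over control with its 95% interval for the 9 genes (upper block) and the 9 tested genes of the list of other S1P genes (lower block), black where the adjusted p is under 0.05. Plpp3 at −1.43 and Sgpl1 at 0.83 are the outermost of the upper block, and the interval of Sgpp2 is the widest of all.

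Among the siRNA libraries, replicates 4 and 5 had the lowest Kdr (173 and 167 CPM). The same libraries had the lowest Plpp3 (66.2 and 63.6 CPM) and Plpp1 (480.1 and 472 CPM) and the highest S1pr1 (636 and 644 CPM). With 5 libraries this is a description only. Spns2 and Sgpl1 did not follow that order, since siRNA replicate 3 had the second lowest Spns2 and siRNA replicate 2 the second highest Sgpl1. Nor did S1pr2, highest in siRNA replicate 1, or S1pr3, at 0.987 CPM in siRNA replicate 4 and 0.821 CPM in siRNA replicate 1. Kdr was highest in siRNA replicate 3, but Plpp3 in siRNA replicate 1. Flt4, Lyve1, Reln, Prox1 and Ccl21a were also lowest in siRNA replicates 4 and 5, while Pdpn was not. The order is thus not particular to the S1P genes.

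The 3′ untranslated regions (UTRs) bear on one point about an siRNA experiment, since an siRNA can also lower transcripts that match only its seed. The sequence of the siRNA is not given in the sources used here. A 7-base word, GTAAAGA, had been picked in earlier work on these same counts for its tie to lower fold changes, so its values here are no independent evidence. It was present in the longest annotated 3′ UTR (GENCODE M21) of 12.9% of tested genes other than Kdr, and their median log2 fold change was −0.13, against 0.02 in genes without it. Of the carriers 51.5% fell, against 33.0% of the others. The length of the 3′ UTRs was not taken into account in this contrast. Of the 9 S1P genes, 3 carried the word: Plpp3 with 2 copies, S1pr2 with 1 and S1pr3 with 1. Their 3′ UTRs have 1745, 5114 and 2879 bases, and those of the other members 291 to 2731. Kdr has 1 copy at the end of its 3′ UTR and 2 in that whole transcript, of which the 3′ UTR copy is shown. The sites are shown because Plpp3 is both the most lowered member and the one with more than 1 copy. The word is in capitals, 5′ to 3′ on the transcript strand, at chr4:105231854-105231882 (+) and chr4:105232632-105232660 (+) for Plpp3, chr9:20962812-20962840 (−) for S1pr2, chr13:51421087-51421115 (+) for S1pr3 and chr5:75932827-75932846 (−) for Kdr, all in GRCm38.
Plpp3 site 1: aaagagcctcaGTAAAGAgacaaggagag
Plpp3 site 2: gattccgttttGTAAAGAgaataatattc
S1pr2: tggctccttagGTAAAGAtggttggcatc
S1pr3: ttgtccatcctGTAAAGAaaatgcgtaga
Kdr: acgtattctgaGTAAAGAga

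Of these carriers Plpp3 and S1pr3 fell and S1pr2 rose. The S1pr2 site lies outside the shorter RefSeq model of the gene. Spns2, which also fell, and Plpp1 have no copy, nor do S1pr1, Sphk1, Sphk2 and Sgpl1. The part of the word in the fall of Plpp3 was not tested.

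Sequences before a start of the 3 genes with the smallest adjusted p are shown because these genes moved most clearly, Plpp3 and Spns2 down and Sgpl1 up. They are the 250 bases before an annotated RefSeq start (GRCm38.p6), 5′ to 3′ on the gene's strand, at chr4:105157097-105157346 (+) for Plpp3, chr11:72475028-72475277 (−) for Spns2 and chr10:61147685-61147934 (−) for Sgpl1. The windows of Plpp3 and Sgpl1 adjoin the 5′ end of the gene, while that of Spns2 lies inside the gene, before an internal annotated start, and the 5′ end of Spns2 was not used here. Capitals mark matches on either strand to 6 motifs: TGANTCA (AP-1), TGTGGT (RUNX), CCGGAA (ETS), GGGCGG (GC box of KLF and SP factors), CACCC (KLF) and GATAA (GATA).
Plpp3: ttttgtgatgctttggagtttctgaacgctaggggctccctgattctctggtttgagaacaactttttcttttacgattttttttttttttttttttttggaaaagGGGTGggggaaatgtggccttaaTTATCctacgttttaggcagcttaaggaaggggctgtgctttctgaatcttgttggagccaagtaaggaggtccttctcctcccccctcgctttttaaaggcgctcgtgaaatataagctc
Spns2: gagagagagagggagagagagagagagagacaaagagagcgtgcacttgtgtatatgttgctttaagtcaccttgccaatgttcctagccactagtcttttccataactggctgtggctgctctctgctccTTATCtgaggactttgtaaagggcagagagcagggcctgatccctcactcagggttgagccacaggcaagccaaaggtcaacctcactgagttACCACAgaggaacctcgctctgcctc
Sgpl1: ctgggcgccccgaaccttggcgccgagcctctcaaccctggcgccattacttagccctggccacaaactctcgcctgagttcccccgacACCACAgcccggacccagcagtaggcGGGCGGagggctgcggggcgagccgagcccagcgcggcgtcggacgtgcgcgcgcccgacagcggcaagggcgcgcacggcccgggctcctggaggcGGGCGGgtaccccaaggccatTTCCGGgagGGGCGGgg

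The windows held 42.4% G and C for Plpp3, 74.8% for Sgpl1 and 51.6% for the internal start of Spns2, beside a median of 60.0% over 12500 promoters of tested genes. The Sgpl1 window holds 3 GC boxes (present in 57.7% of those promoters), 1 ETS match (21.8%) and 1 RUNX match (10.5%). That of Spns2 holds 1 RUNX match and 1 GATA match (14.5%), and that of Plpp3 holds 1 CACCC box (57.4%) and 1 GATA match. None of the 3 has the AP-1 letters (4.33%). A match describes letters in the window and not binding. Promoters of 7 of the 9 genes were matched in the table, and those of S1pr1 and Plpp1 were not used here.

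Of the 28 tested genes of ceramide and sphingosine metabolism, which feeds the pathway with sphingosine, 10 rose, 8 fell and 10 did not pass, with a median log2 fold change of −0.02. Over all genes tested 71.3% passed (36.1% higher, 35.2% lower) with a median of −0.0019, so these counts do not set the list apart. The largest change among the 6 with the smallest adjusted p was that of Acer2, the Golgi ceramidase that releases sphingosine, which fell from 194 ± 10.97 to 90.5 ± 3.12 CPM (SD, n = 5; log2 fold change −1.101, edgeR adjusted p = 4.82e-24). Sptssa, a small subunit of serine palmitoyltransferase, which starts sphingolipid synthesis, fell by 0.68 on the log2 scale. Sptlc2, a catalytic subunit of it, had a log2 fold change of −0.45 (edgeR adjusted p = 1.42e-20), and the ceramide synthase gene Cers4 fell by 0.51. Ugcg, which makes glucosylceramide, rose by 0.39, and the sphingomyelin synthase gene Sgms2 by 0.38. Of the list, 3 genes had no entry under their symbols and 1 was under the filter.

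Of the 11 other S1P genes 9 were tested: Plpp2 and Sgpp2 rose, Sgpp1, Abca1 and Abcg2 fell and 4 did not pass (median log2 fold change −0.14), again beside 71.3% of all genes tested that passed. In the list of proteins that act with or below the receptors, 6 of 23 tested genes rose, 10 fell and 7 did not pass (median −0.06), a share of calls close to the same 71.3%. Arrb1, the beta-arrestin gene whose product takes up activated receptors, fell from 364 ± 4.799 to 230 ± 5.47 CPM (SD, n = 5; log2 fold change −0.67, edgeR adjusted p = 1.04e-26). Of regulators of G protein signalling, Rgs3 fell by 0.74 and Rgs16 rose by 0.67 on the log2 scale. The receptor kinase gene Grk2 rose by 0.32 and the G protein alpha subunit genes Gnaq and Gnai3 by 0.40 and 0.29. Lysophosphatidic acid (LPA) is another substrate of the Plpp phosphatases. Of its 4 tested genes 2 passed, beside that 71.3%: Enpp2, which encodes the LPA-producing enzyme autotaxin, fell by 0.92 from 3.63 ± 0.591 CPM, and the receptor gene Lpar6 fell by 0.37. Lpar2 (log2 fold change 0.39, edgeR adjusted p = 0.0746) and Lpar4 (−0.25, edgeR adjusted p = 0.0838) did not pass. Without control replicate 3, all 4 LPA genes passed, with Lpar2 at 0.66 and Lpar4 at −0.32.

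**Figure D4:**
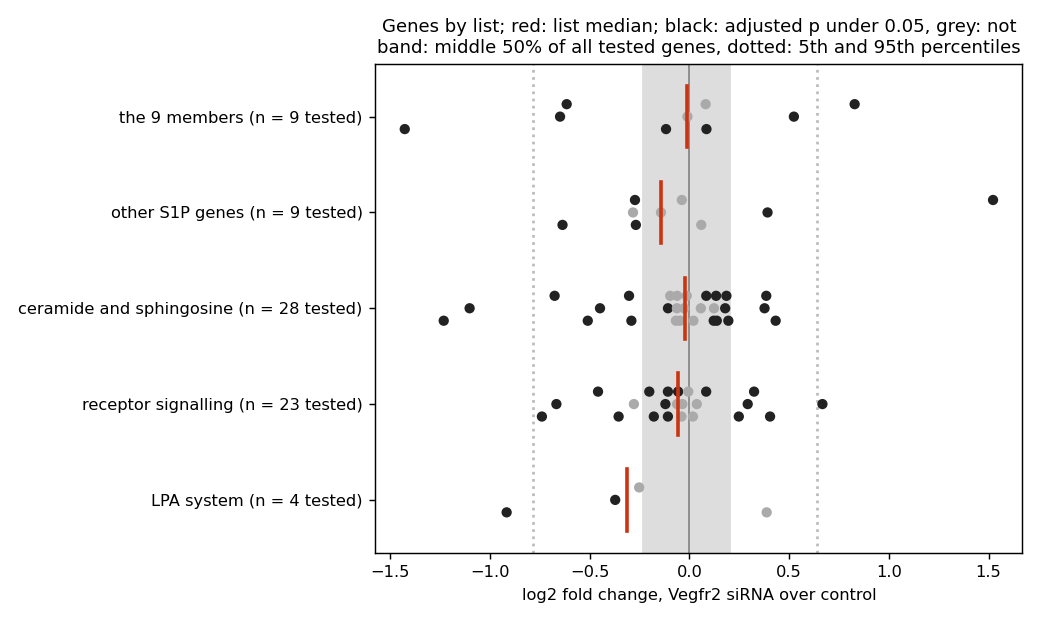
Log2 fold changes of the tested genes of each list, 1 point per gene, black where the adjusted p is under 0.05, with the list's median in red. The grey band spans the middle 50% of all tested genes (−0.23 to 0.21) and the dotted lines their 5th and 95th percentiles (−0.78 and 0.64), and Plpp3 and Sgpl1 are the members outside the dotted lines.

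The genes whose values lay closest to those of Plpp3 over the 10 libraries, each centred on its control mean, were Mtss2, Sned1 and Psrc1, with root mean square differences of 0.0453, 0.0641 and 0.0653 log2 units. Mtss2 fell from 199 to 75.5 CPM, and Sned1 from 112 to 41.8 CPM. The closest to S1pr1 were Arhgef7 (0.0151), Mis18a (0.0199) and Ykt6 (0.0203). These are the nearest among 10318 genes of at least 5 CPM.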

How the data were processed

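Poly(A) RNA was sequenced in 10 libraries (5 control, 5 Vegfr2 siRNA), grouped by their titles. The values deposited by the authors are estimated counts of reads, 1 for each gene in each library, without normalization. The submitters' processing notes give the build as GRCm38.p6 and list RSEM 1.3.1, HISAT2 2.2.1 and Bowtie2 2.4.5. Annotation and strand setting: not given in the sources used here. Between 10.5% and 11.3% of a library's values are fractional. No library repeated another of its group, since pairs had a chi-square of 1.50 to 3.47 per degree of freedom.

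Rounded counts entered edgeR 4.0.16 (R 4.3.3). Genes were kept by filterByExpr (minimum count 10), libraries scaled by TMM, and a robust quasi-likelihood model fitted to group alone, with Benjamini-Hochberg adjustment over all 12161 genes tested with a threshold of 0.05. Intervals are 95% from that fit. CPM use TMM-scaled library sizes. TPM use the union of GENCODE M21 exons (15822 genes with a length). Coordinates and promoters are RefSeq's for GRCm38.p6. The method was tested on simulated data in which 200 of 12161 genes were changed. It recovered 36% of genes changed 1.1-fold and 94% of those changed 1.5-fold, and 4.97% of its calls were false. Far fewer genes were changed there than passed in the real data, so the simulation does not cover that setting.

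The members and lists were chosen with earlier results of these data known. Genes named are the members, Kdr, all other S1P genes, up to 6 tested genes of each further list with the smallest adjusted p, the markers, and the 3 genes of the most similar pattern for S1pr1 and Plpp3. Genes that overlap a member are named for that overlap. Alternatives were the tools DESeq2 1.42.0 and limma-voom (limma 3.58.1), scaling by RLE or upper quartile, filters of none or 5 CPM on the mean, unrounded counts, a replicate block, glmTreat, longest transcripts as lengths, and leaving out each library.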

Additional observations from a re-analysis of the deposited data

Results flagged for a closer look

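Of 24 groups of 5 libraries examined (the 9 genes, Kdr and 2 shares in each condition), 2 held a library far from the other 4, and chance alone gives about 5% of groups. S1pr2 was lowest in control replicate 1, at 6.32 CPM, with the other control libraries between 7.45 and 7.85 CPM. Sphk2 was highest in siRNA replicate 3, at 26.3 CPM, with the other siRNA libraries between 24.8 and 25.2 CPM.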

How the results depend on the processing

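All 7 called members kept their direction and stayed past the threshold with RLE or upper-quartile factors, DESeq2, limma-voom, no filter, unrounded counts, and each library left out, over which Plpp3 ran from −1.45 to −1.40, Sgpl1 from 0.81 to 0.84 and Spns2 from −0.63 to −0.59. At a mean of at least 5 CPM S1pr3 and Sphk1 were not tested and the other 6 calls stayed. Sphk1 and Sphk2 were called under none of these settings. Against a fold of 1.5 (glmTreat) 1041 genes passed, and of the lists 2 members, 1 other S1P gene, 3 ceramide, 2 signalling and 1 LPA gene. S1pr1 (0.0857), S1pr2 (0.52), S1pr3 (−0.65) and Plpp1 (−0.12) then had an adjusted p of 1, and Spns2 (−0.61) of 0.424. That test asks for more than the main one by construction. The LPA list had 1 call at a mean of at least 5 CPM, where 1 of its genes was tested, and 2 to 4 with a library left out. With the longest transcript as length, control levels were 574 TPM for S1pr1, 0.937 for S1pr3, 21.2 for Sphk2, 231 for Spns2, 51.4 for Sgpl1, 981 for Plpp1 and 171 for Plpp3, and the share of S1pr1 among the receptors was 99.2% in control and 99.1% in siRNA cells.

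Same-numbered libraries did not deviate together (correlations of deviations over genes from −0.0982 to −0.0066), so no pairing by number was seen. These correlations cannot tell whether same-numbered libraries shared a culture or batch with a small effect. With the replicate number as a block 8537 genes passed, and the 7 members kept their calls. Depth limits S1pr3, with 14 to 28 counts per library, and Sphk1, with 37 to 60.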
